A study of Homo sapiens with 40 samples.

Results

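The genes described here are 10 human genes of the integrated stress response: ATF4, DDIT3 (which encodes CHOP), ATF3, TRIB3, ASNS, CHAC1, SESN2, PSAT1, PHGDH and GDF15. They were taken by symbol from a table of 19962 genes, where each matched 1 Ensembl identifier, and all 10 were among the 11428 genes with enough counts to test. The table holds poly(A) RNA counts of 40 libraries from RKO, an established human colorectal carcinoma line. Every group carried Cas9 under a doxycycline-inducible promoter, a GFP marker, and a lentiviral vector with a guide pair and a blue fluorescent protein, for which the cells were sorted. The guides were directed at the control locus AAVS1 (sgAAVS1), at IGF2BP2 (sgIGF2BP2) or at IGF2BP3 (sgIGF2BP3), the latter 2 being genes of RNA-binding proteins. Each of the 3 lines was studied with DMSO and with 250 ng/mL doxycycline (Dox) for 72 hours. Without Dox, sgIGF2BP2 cells were also transfected with a non-targeting siRNA (siControl) or an siRNA pool against IGF2BP2 (siIGF2BP2), and sgIGF2BP3 cells with siControl or a pool against IGF2BP3 (siIGF2BP3), at 75 nM for 48 hours. All cells received the nucleoside s4U at 250 µM for 2 hours. Each of the 10 groups had 4 libraries, each from a culture well of its own. The p-values therefore measure the spread between wells of a line that was sorted as a population.

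In the integrated stress response, stress-activated kinases phosphorylate the initiation factor eIF2, which lowers protein synthesis in general and lets the upstream reading frames of ATF4 mRNA be bypassed, so that ATF4 protein is made. ATF4 and its partners then switch on genes for amino acid synthesis and transport, redox balance and feedback. CHOP adds genes that can lead to cell death when stress lasts, and PERK links the pathway to the unfolded protein response of the endoplasmic reticulum. The mRNA levels given here do not report ATF4 protein or its translation. GDF15, a secreted stress cytokine, is a target of both ATF4 with CHOP and of p53, and SESN2 and ATF3 are also known as p53 targets.

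Total counts per library ranged from 10018181 to 24822807, with a median of 13468792. IGF2BP2 lay at 29.5 to 38.0 CPM (the counts of a gene relative to its library's total, which was scaled by the trimmed mean of M-values) in the 4 sgIGF2BP2 Dox libraries and at 29.2 to 31.7 CPM with siIGF2BP2, and IGF2BP3 at 51.1 to 59.0 CPM in the sgIGF2BP3 Dox libraries and at 22.6 to 26.4 CPM with siIGF2BP3. The other libraries held 83.8 to 121 CPM of IGF2BP2 and 145 to 185 CPM of IGF2BP3, so each target was low where the labels place it. IGF2BP3 also fell with Dox in sgIGF2BP2 cells, from a mean of 178.8 to 151.0 CPM without overlap (log2 fold change -0.25, edgeR adjusted p = 2.93e-06). IGF2BP2 was higher with siControl than with DMSO, by 0.34 in sgIGF2BP2 and 0.28 in sgIGF2BP3 cells (log2, edgeR adjusted p = 4.49e-09 and 6.46e-07). KRT8, KRT18, EPCAM and CDX2 were present in every library, while the epithelial markers CDH1, KRT19, VIL1 and KRT20 had at most 4 counts in any. The 12 markers of immune, fibroblast and endothelial cells had at most 11 counts each. The sgIGF2BP2 Dox replicate 2 library stood apart from its 3 group mates. Its chi-square statistics were 11.8 to 16.6 per gene, against a median of 2.28 over all 60 replicate pairs. The Dox effects of that line on the genes described, apart from ASNS, and the list counts are also given without it. With siIGF2BP2, replicate 3 stood at 5.66 to 6.45 per gene against its 3 group mates, which stood at 1.49 to 1.835 among themselves. The list counts after siIGF2BP2 were not recomputed without that library.

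With DMSO the 10 genes spanned a wide range of abundance. Over the 12 DMSO libraries, ATF4 stood at 94.5 ± 4.51 CPM per kilobase of its principal transcript (mean ± SD), ahead of the serine synthesis genes PHGDH (40.04 ± 2.37) and PSAT1 (37.9 ± 1.80), both on the same scale. TRIB3, a pseudokinase gene that feeds back on ATF4 and AKT, followed at 24.6 ± 0.987 and DDIT3 at 16.6 ± 1.23 CPM per kilobase. The remaining genes lay below 4 CPM per kilobase, with GDF15 at 3.49 ± 0.517, SESN2 at 2.35 ± 0.387, CHAC1 at 0.991 ± 0.281 and ATF3 at 0.752 ± 0.176. ASNS, which makes asparagine and is a classic ATF4 target, was the lowest at 0.387 ± 0.127 CPM per kilobase and had only 3 to 23 counts per library over all 40. The length used matters for the order of PHGDH and of GDF15. Per kilobase of all annotated exons PHGDH stood at 11.2 CPM, below PSAT1 (37.9), TRIB3 (17.9) and DDIT3 (11.9) on that scale, and GDF15 stood at 2.005 CPM, below SESN2 (2.35). In GENCODE 29, ASNS shares 1985 exon bases with the same-strand gene AC079781.5, and reads there may have been left out of its count. ATF4, ASNS and PSAT1 each have 4 annotated pseudogenes outside the tested genes, and how reads shared with them were counted is not given in the sources used here.

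**Figure D1:**
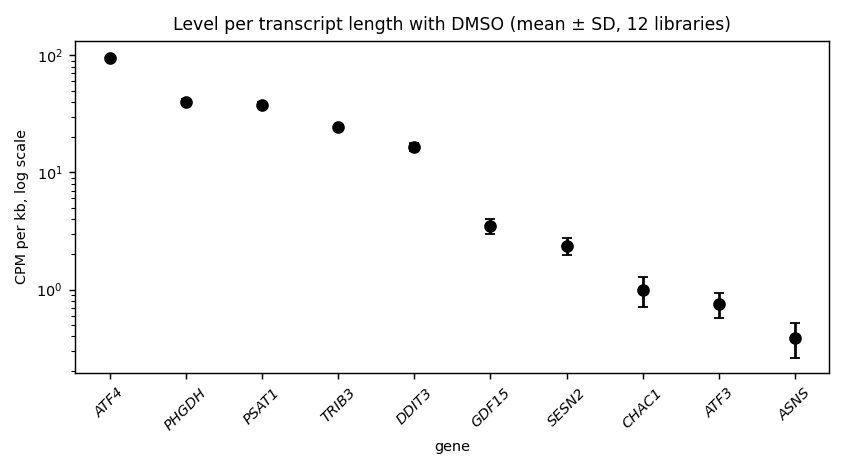
Level of each gene over the 12 DMSO libraries, in CPM per kilobase of its principal transcript on a log axis (points, means; bars, SD). ATF4 is at 94.5 and ASNS at 0.387 CPM per kilobase.

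GDF15 (ENSG00000130513; GRCh38, chromosome 19, 18374731 to 18389176, forward strand) had the greatest called changes among the 10 genes. It read 5.53, 4.81, 4.58 and 3.47 CPM in the sgAAVS1 DMSO libraries and 10.4, 9.47, 12.3 and 11.2 CPM with Dox, and the groups did not overlap. In sgIGF2BP2 cells it read 4.80, 3.602, 3.83 and 3.94 CPM with DMSO and 8.66, 10.9, 9.33 and 10.6 CPM with Dox, again without overlap. In sgIGF2BP3 cells it read 3.82, 3.95, 4.24 and 3.65 CPM with DMSO and 5.36, 8.19, 5.88 and 5.58 CPM with Dox. All Dox libraries of that line were also above all DMSO libraries, but 3 of the 4 lay close together and replicate 2 lay well above them. In transfected cells siControl gave 8.47, 8.33, 6.62 and 7.01 CPM in sgIGF2BP2 cells and 8.50, 7.64, 9.54 and 7.54 CPM in sgIGF2BP3 cells, above every DMSO library of the same line. With siIGF2BP2 it was 6.58, 5.39, 6.10 and 5.05 CPM, below every siControl library of that line, and with siIGF2BP3 it was 8.92, 9.33, 8.70 and 9.07 CPM, within the range of siControl.

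GDF15 rose with Dox by 1.25 in sgAAVS1 cells (log2 fold change, SE 0.13, adjusted p = 5.73e-12 by edgeR's quasi-likelihood test over all genes), 1.31 in sgIGF2BP2 cells (SE 0.13, edgeR adjusted p = 1.16e-12) and 0.68 in sgIGF2BP3 cells (SE 0.14, edgeR adjusted p = 0.002). Without the sgIGF2BP2 Dox replicate 2 library the second value was 1.25 (edgeR adjusted p = 1.09e-10). The call in sgIGF2BP3 cells rested on 1 library: without Dox replicate 2 the change was 0.52 and the edgeR adjusted p 0.0565. The line with control guides thus showed a GDF15 rise as well. The Dox effect of sgIGF2BP2 cells differed from that of sgAAVS1 cells by 0.06 (95% interval -0.30 to 0.42, edgeR adjusted p = 0.899), and by -0.0023 without sgIGF2BP2 Dox replicate 2 (-0.42 to 0.41, edgeR adjusted p = 0.996). That of sgIGF2BP3 cells was 0.57 below the sgAAVS1 effect and 0.63 below the sgIGF2BP2 effect on the log2 scale, and neither difference passed the threshold (edgeR adjusted p = 0.0514 and 0.0565). The second was -0.57 without sgIGF2BP2 Dox replicate 2 (edgeR adjusted p = 0.112). Without the high library, sgIGF2BP3 Dox replicate 2, both passed, at -0.73 (edgeR adjusted p = 0.0126) and -0.79 (edgeR adjusted p = 0.0127). The first also passed without sgAAVS1 DMSO replicate 1 (-0.67) or Dox replicate 2 (-0.63), and the second without sgIGF2BP2 DMSO replicate 1 (-0.71) or Dox replicate 1 (-0.69).

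**Figure D2:**
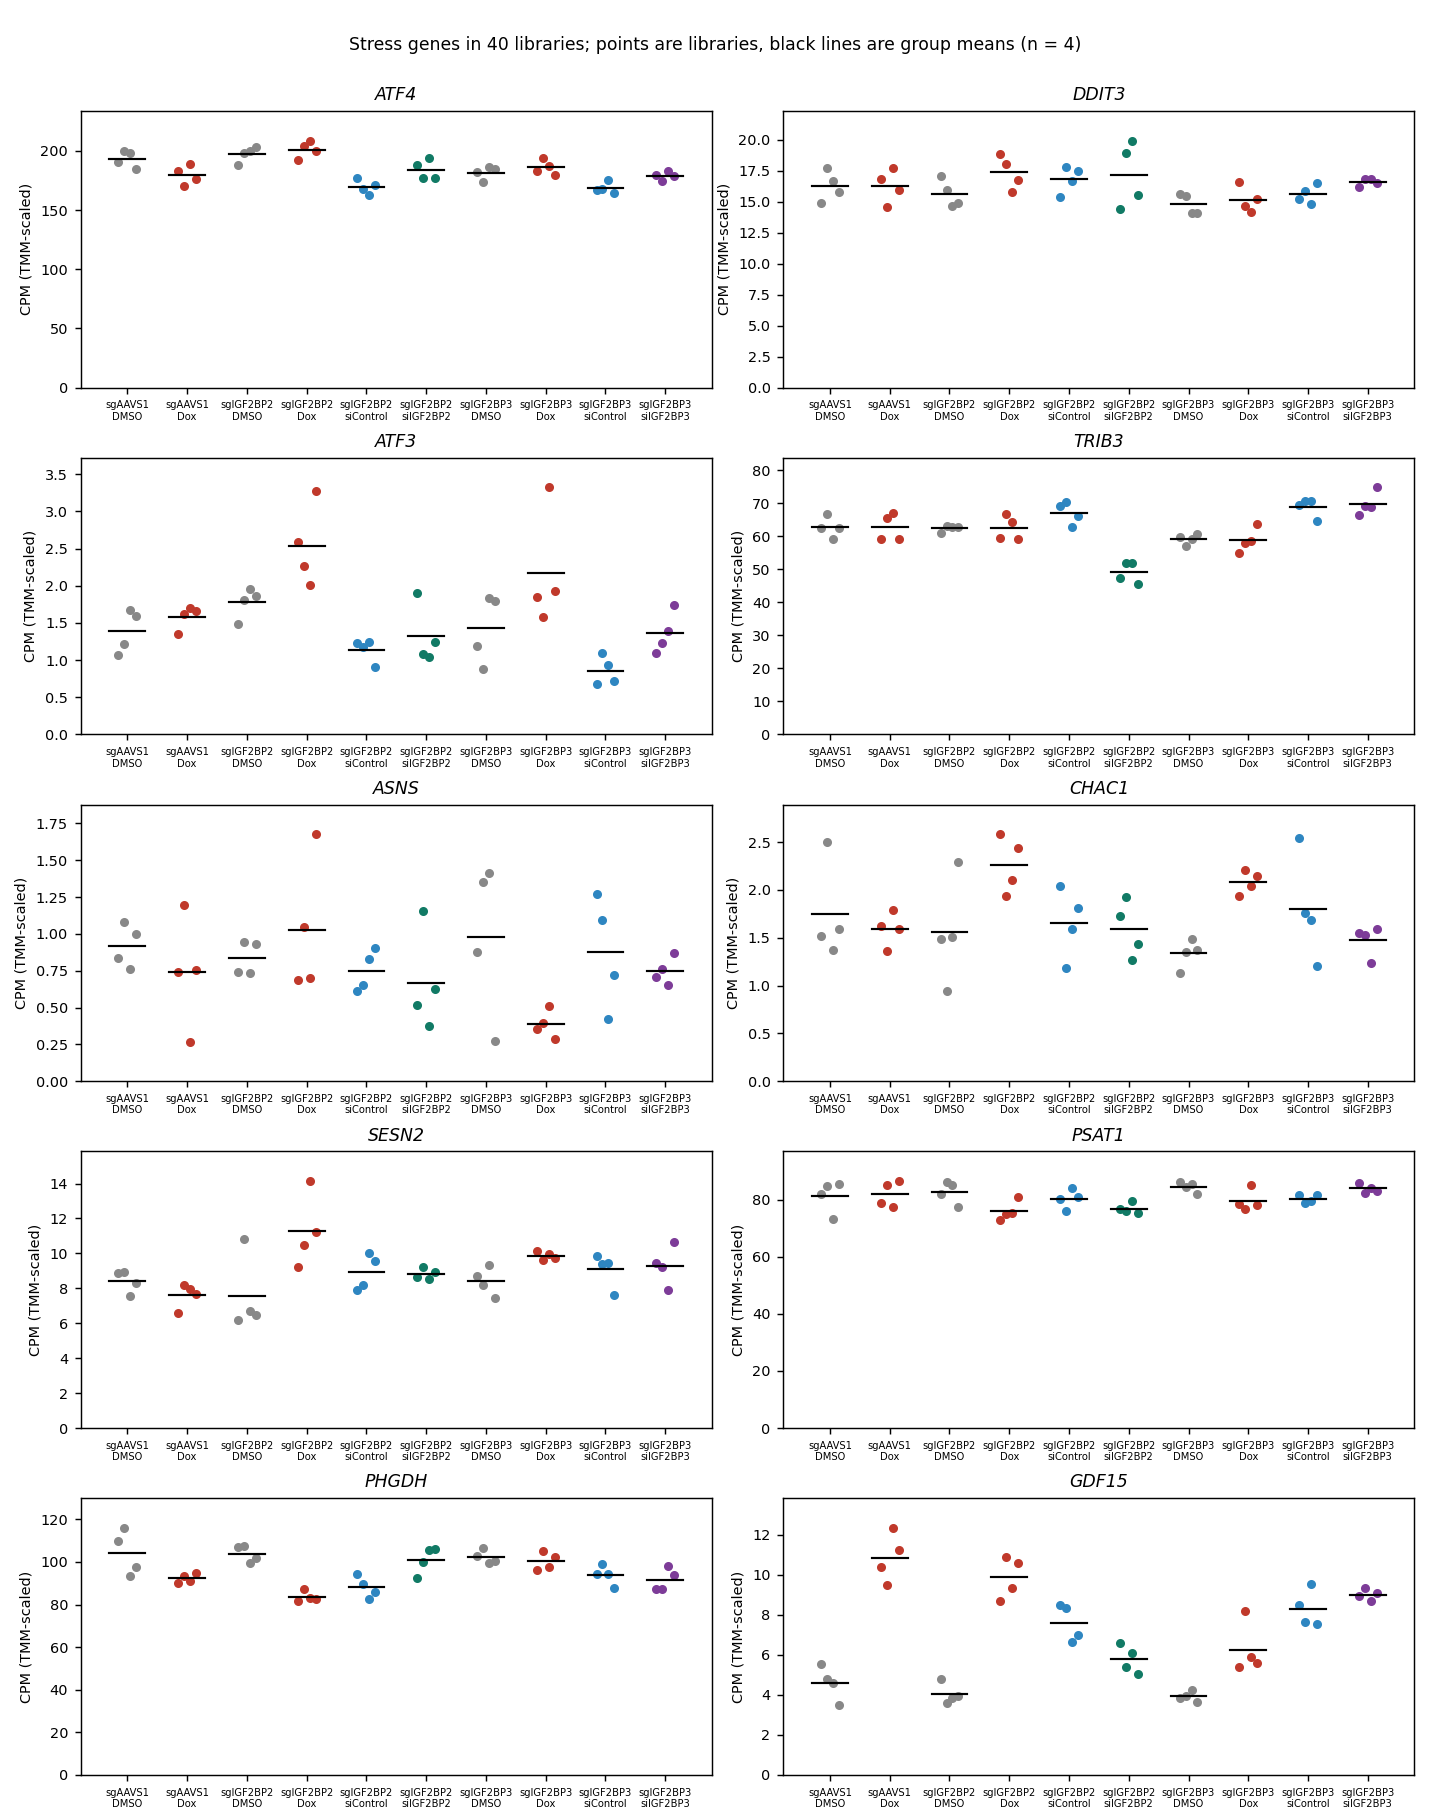
CPM of the 10 genes in all 40 libraries by group (points, libraries; lines, group means; each axis starts at 0). GDF15 rises with Dox in each line and is higher with siControl than with DMSO, TRIB3 is lowest with siIGF2BP2, and ASNS, ATF3 and CHAC1 stay below 3.5 CPM.

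After Dox in sgAAVS1 cells, 3 of the 10 genes were called, that is, had an adjusted p under 0.05. The share among all genes tested was 15.9%. The groups did not overlap for 1 of the 10, GDF15, and for 17.5% of all. GDF15 rose, and ATF4 and PHGDH fell slightly. ATF4 (ENSG00000128272; GRCh38, chromosome 22, 39519695 to 39522685, forward strand) went from a mean of 193.5 to 179.6 CPM, a change of -0.11 on the log2 scale (SE 0.037, edgeR adjusted p = 0.036), with overlapping groups. That call was lost without DMSO replicate 2 or 3 or Dox replicate 2 or 4, where the change was -0.09, -0.10, -0.08 and -0.10. PHGDH (ENSG00000092621; chromosome 1, 119648411 to 119744226, forward strand), the first enzyme of serine synthesis, read 110, 116, 93.6 and 97.4 CPM with DMSO and 90.1, 93.3, 90.95 and 94.8 CPM with Dox. DMSO replicate 3 lay within the range of the Dox libraries. The change was -0.18 (SE 0.049, edgeR adjusted p = 0.00826), and without DMSO replicate 2, the highest, it was -0.12 and not called (edgeR adjusted p = 0.106).

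After Dox in sgIGF2BP2 cells, 4 of the 10 genes were called, against 20.4% of all genes tested, and 3 of the 10 had no overlap between groups, against 18.0% of all. Besides GDF15, SESN2 rose and PHGDH and PSAT1 fell. SESN2 (ENSG00000130766; chromosome 1, 28259527 to 28282491, forward strand) encodes sestrin 2, a leucine-binding inhibitor of mTORC1. It read 6.21, 10.8, 6.68 and 6.44 CPM with DMSO and 9.19, 10.5, 14.1 and 11.2 CPM with Dox. DMSO replicate 2 lay within the range of the Dox libraries, so the groups overlapped. The change was 0.59 (SE 0.12, edgeR adjusted p = 0.000125), and 0.62 without Dox replicate 2 (edgeR adjusted p = 0.000215). PHGDH read 107, 107, 99.6 and 102 CPM with DMSO and 81.6, 87.2, 82.95 and 82.4 CPM with Dox. No library overlapped, and the change of -0.31 (SE 0.050, edgeR adjusted p = 1.79e-06) became -0.33 without Dox replicate 2 (edgeR adjusted p = 2.14e-06). PSAT1, the enzyme after PHGDH in the same pathway, changed by -0.12 (edgeR adjusted p = 0.0437), a call that was lost without Dox replicate 2 (-0.11, edgeR adjusted p = 0.0957) and in 5 of the other 7 fits that left out a library. CHAC1 changed by 0.51 and did not pass (edgeR adjusted p = 0.084), but did without DMSO replicate 4 (0.72, edgeR adjusted p = 0.021). Without Dox replicate 2 it was 0.60 (edgeR adjusted p = 0.0656), and 3 of the 10 genes were called in that fit, against 18.0% of all. ASNS changed by 0.35 (edgeR adjusted p = 0.518). Over 15 alternatives, those that left out a library among them, its change ranged from 0.04 to 0.50 and was never called.

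After Dox in sgIGF2BP3 cells GDF15 alone was called among the 10 genes, against 2.64% of all genes tested. CHAC1, which degrades glutathione, read 1.13, 1.36, 1.48 and 1.38 CPM with DMSO and 1.93, 2.21, 2.05 and 2.15 CPM with Dox. Its groups did not overlap, as was so for 3 of the 10 genes and for 10.4% of all genes tested, but at 18 to 30 counts a library the change of 0.65 did not pass (SE 0.23, edgeR adjusted p = 0.117). SESN2 likewise had no overlap, with a change of 0.23 that did not pass (edgeR adjusted p = 0.331). ASNS had 14, 23, 20 and 4 counts with DMSO and 4, 5, 6 and 4 with Dox. Its change of -1.35 (95% interval -2.16 to -0.54) did not pass (edgeR adjusted p = 0.059). It passed without DMSO replicate 4, whose count equalled the lowest of the Dox libraries (-1.64, edgeR adjusted p = 0.0129).

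The transcription factor genes were not called as raised by Dox in any line. ATF4 changed by 0.03 in sgIGF2BP2 cells (95% interval -0.05 to 0.10) and by 0.03 in sgIGF2BP3 cells (-0.04 to 0.11), so a rise above about 0.11 lies outside both intervals. DDIT3 changed by -0.00045 (-0.16 to 0.16), 0.17 (0.011 to 0.33) and 0.03 (-0.13 to 0.20) in sgAAVS1, sgIGF2BP2 and sgIGF2BP3 cells, with edgeR adjusted p-values of 0.998, 0.134 and 0.894. TRIB3 stayed within -0.11 to 0.10 by the 95% intervals of the 3 lines. Without sgIGF2BP2 Dox replicate 2, the changes in that line were 0.02 for ATF4 (95% interval -0.06 to 0.09), 0.15 for DDIT3 (-0.03 to 0.33), -0.04 for TRIB3 (-0.15 to 0.07) and 0.56 for ATF3 (0.10 to 1.02), and none was called. ATF3, an early stress-induced repressor and activator, had 14 to 48 counts per library with DMSO and 19 to 43 with Dox. Its changes of 0.17, 0.49 and 0.62 in sgAAVS1, sgIGF2BP2 and sgIGF2BP3 cells did not pass (edgeR adjusted p = 0.703, 0.0948 and 0.14). In sgIGF2BP2 cells all 4 Dox libraries, at 2.01 to 3.28 CPM, were above the 4 DMSO libraries, at 1.49 to 1.955 CPM. DDIT3 shares 355 exon bases with MARS1 and 58 with MBD6 on the opposite strand, so reads of these genes cannot be told apart if the counting ignored strand. It also shares 105 exon bases with AC022506.1 on its own strand, where strand does not separate them.

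After siIGF2BP2, 4 of the 10 genes were called, against 36.8% of all genes tested, and 3 had no overlap, against 30.6% of all. TRIB3 (ENSG00000101255; chromosome 20, 362835 to 397559, forward strand) fell most, reading 69.3, 70.5, 62.85 and 66.1 CPM with siControl and 47.4, 52.0, 52.0 and 45.6 CPM with siIGF2BP2. Those 4 libraries were lower than the other 36 in the series, and the next higher group mean was that of sgIGF2BP3 Dox, without overlap. The change was -0.45 (SE 0.051, edgeR adjusted p = 4.89e-11), and it was called in all 15 alternatives run. GDF15 fell by 0.42 on the log2 scale (SE 0.13, edgeR adjusted p = 0.00614). ATF4 went the other way, from 177, 168, 163 and 171 CPM to 188, 177, 194 and 177 CPM, a change of 0.11 (SE 0.037, edgeR adjusted p = 0.011). It was not called without siControl replicate 3 (0.09, edgeR adjusted p = 0.0629) or siIGF2BP2 replicate 3 (0.09, edgeR adjusted p = 0.0733). PHGDH read 94.4, 89.5, 82.6 and 85.9 CPM with siControl and 92.4, 99.9, 106 and 106 CPM with siIGF2BP2, a change of 0.20 (SE 0.049, edgeR adjusted p = 0.0009). DDIT3, ATF3, ASNS, CHAC1, SESN2 and PSAT1 were not called, with changes from -0.14 to 0.18.

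After siIGF2BP3, 0 of the 10 genes were called by edgeR, against 2.34% of all genes tested. At an unadjusted p under 0.05 the number was 2 (ATF4 and ATF3), and DESeq2 called 0 and gave 5 of the 10 no adjusted p. The groups did not overlap for 2 of the 10, ATF3 and PSAT1, against 9.96% of all. ATF3 had the greatest change, 0.62 (95% interval 0.05 to 1.19, edgeR adjusted p = 0.319), from 0.684, 1.09, 0.9285 and 0.722 CPM to 1.10, 1.23, 1.395 and 1.74 CPM at 7 to 24 counts a library. TRIB3 changed by 0.02 (95% interval -0.08 to 0.115) and GDF15 by 0.13 (-0.10 to 0.36).

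**Figure D3:**
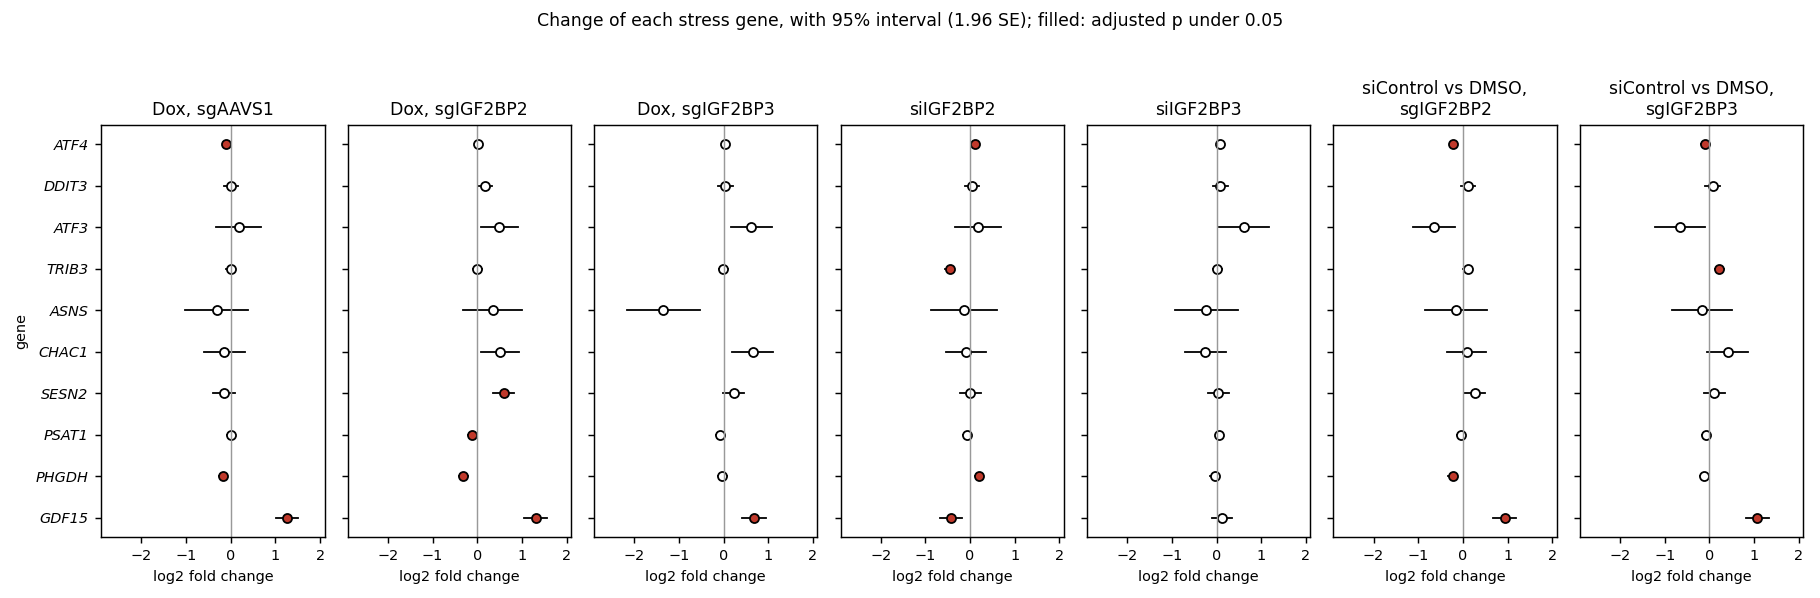
Log2 fold change of each gene in 7 comparisons, with 95% intervals (filled points, adjusted p under 0.05 by edgeR). GDF15 is filled in 6 of the 7 panels, and the intervals of ASNS, ATF3 and CHAC1 are the widest.

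The effects of the pools were tested against each other, and 3 of the 10 genes were called, against 18.7% of all genes tested. TRIB3 lay 0.47 higher after siIGF2BP3 than after siIGF2BP2, each relative to its own siControl (SE 0.072, edgeR adjusted p = 5.89e-07). GDF15 lay 0.55 higher (SE 0.17, edgeR adjusted p = 0.0172) and PHGDH 0.24 lower (log2 difference -0.24, SE 0.070, edgeR adjusted p = 0.0104). The GDF15 difference was not called without sgIGF2BP2 siControl replicate 1 (0.48, edgeR adjusted p = 0.0532) or without siIGF2BP2 replicate 4 (0.48, edgeR adjusted p = 0.0545). The pools were used in different lines, so pool and line cannot be told apart in these differences. Among the Dox effects, SESN2 differed between sgIGF2BP2 and sgAAVS1 cells by 0.74 (SE 0.17, edgeR adjusted p = 0.00332) and was the 1 gene of 10 called, against 6.97% of all genes tested. Without sgIGF2BP2 Dox replicate 2 that difference was 0.78 (edgeR adjusted p = 0.00329). PHGDH was the 1 gene called between sgIGF2BP3 and sgIGF2BP2 cells, against 2.91% of all, with a Dox effect 0.28 higher in sgIGF2BP3 cells (SE 0.070, edgeR adjusted p = 0.0107), and 0.30 without sgIGF2BP2 Dox replicate 2 (edgeR adjusted p = 0.00696). Between sgIGF2BP3 and sgAAVS1 cells edgeR called 0 of the 10, against 7.78% of all, with 5 at an unadjusted p under 0.05 and 0 by DESeq2, which gave 5 of the 10 no adjusted p. Leaving out any 1 of 5 libraries gave 1 called gene there, GDF15 or ATF4. The share of all genes called in the 16 fits that left out a library ran from 3.73% to 12.3%.

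The siControl and DMSO groups of a line differ in transfection, solvent and possibly time in culture, which cannot be told apart. In sgIGF2BP2 cells 3 of the 10 genes were called between them, against 18.4% of all genes tested, and in sgIGF2BP3 cells 3, against 19.4% of all. The groups did not overlap for 4 of the 10 in each line, against 20.3% and 21.9% of all. GDF15 was higher with siControl by 0.93 (SE 0.13, edgeR adjusted p = 9.18e-08) and 1.08 (SE 0.13, edgeR adjusted p = 2.67e-09) in the 2 lines. ATF4 was lower with siControl by 0.22 (log2 fold change -0.22, edgeR adjusted p = 5.17e-06) in sgIGF2BP2 cells. In sgIGF2BP3 cells its change of -0.11 (edgeR adjusted p = 0.0346) lost its call in 6 of the 8 fits that left out a library. PHGDH changed by -0.23 (edgeR adjusted p = 0.000254) and -0.12 (edgeR adjusted p = 0.0685), and TRIB3 changed by 0.11 (edgeR adjusted p = 0.124) and 0.22 (edgeR adjusted p = 0.000767), in the same order. ATF3 read 1.49 to 1.955 CPM with DMSO and 0.904 to 1.24 CPM with siControl in sgIGF2BP2 cells, a change of -0.65 just outside the threshold (edgeR adjusted p = 0.0502). SESN2 changed by 0.26 there (edgeR adjusted p = 0.124), and by 0.45 without DMSO replicate 2, its high DMSO library (edgeR adjusted p = 0.00436). These comparisons use the same siControl libraries as those of the siRNA pools and the same DMSO libraries as those of Dox, so a high or low library enters both.

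Between the lines with DMSO, edgeR called 0 of the 10 genes in each of 3 comparisons, against 0.0175% of all genes tested in each. Unadjusted p under 0.05 was reached by 0, 1 and 1 of the 10, in each case ATF4, and DESeq2 called 0, giving 6 of the 10 no adjusted p between sgIGF2BP3 and sgAAVS1. ATF4 was lower in sgIGF2BP3 than in sgIGF2BP2 cells without overlap, at 174, 182, 185 and 186 CPM against 188, 198, 200 and 203 CPM in ascending order, but the change of -0.12 did not pass (edgeR adjusted p = 0.681). TRIB3 was the other of 2 genes without overlap in that comparison, against 4.09% of all. Of the other DMSO comparisons, sgIGF2BP2 with sgAAVS1 and sgIGF2BP3 with sgAAVS1 had 0 of the 10 without overlap, against 2.97% and 5.93% of all. With siControl, edgeR called 0 of the 10 between the 2 lines, against 0.0175% of all, with 0 at an unadjusted p under 0.05 and 0 by DESeq2, and 0 were without overlap, against 4.18% of all.

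When the 10 group means of each gene were ordered, neighbouring groups overlapped in all 9 steps for 9 of the 10 genes and in 8 of 9 for TRIB3. How often neighbours overlap for all genes tested was not computed, so these counts are not shown to be particular to these genes. Groups further apart in the order can still be separate, as those of GDF15 with Dox and with DMSO were. ATF4 ran from 201 ± 7.14 CPM in sgIGF2BP2 Dox to 169 ± 4.56 CPM in sgIGF2BP3 siControl (SD, n = 4), a ratio of 1.19. GDF15 ran from 10.85 ± 1.22 CPM in sgAAVS1 Dox to 3.91 ± 0.249 CPM in sgIGF2BP3 DMSO, a ratio of 2.77. The ratio was 2.96 for ATF3, 2.665 for ASNS, 1.70 for CHAC1, 1.495 for SESN2, 1.42 for TRIB3, 1.25 for PHGDH, 1.18 for DDIT3 and 1.11 for PSAT1. The high ratios of ATF3 and ASNS belong to genes with 48 counts or fewer in any library.

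The 10 genes did not rise and fall as 1 block. Over the 10 group means of log2 CPM, the 45 pairs of genes had Pearson's r from -0.86 (PHGDH with GDF15) to 0.80 (ATF4 with ATF3), with a median of 0.021 and 24 pairs above 0. Over the deviations of the 40 libraries from their group means, r ran from -0.41 to 0.49 with a median of 0.043. These are descriptions over points that share scaling factors and, over group means, the treatments. Counting noise also draws r towards 0, most for ASNS, ATF3 and CHAC1, which had at most 23, 48 and 40 counts per library. By the same measure over 10 groups, and among 9951 genes searched, the genes most like ATF4 were RPP38 (r = 0.95), MRPL36 (0.93) and RPL12 (0.93). Those most like GDF15 were FAM214B (r = 0.96), CYLD (0.945) and ICAM1 (0.94). For DDIT3 they were PPP1R12C (r = 0.90), TBC1D8 (0.88) and HOXB8 (0.87), for CHAC1 C19orf70 (0.88), ACSF2 (0.88) and PLEKHN1 (0.86), and for ASNS RNF216 (0.92), YJU2 (0.89) and BZW2 (0.84). Each is among the highest of 9951 values over only 10 points. How high r runs for unrelated genes in such a search was not tested, so these genes are not shown to be regulated together.

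Other genes of the pathway were read from 6 lists. The shares of all genes called in either direction, against which their counts stand, were 15.9%, 20.4% and 2.64% after Dox in sgAAVS1, sgIGF2BP2 and sgIGF2BP3 cells, 36.8% after siIGF2BP2 and 2.34% after siIGF2BP3. The shares called lower were 8.68%, 10.4%, 1.01%, 18.4% and 1.4% in the same order, and the shares called higher with Dox were 7.25%, 10.0% and 1.64%. Without sgIGF2BP2 Dox replicate 2 the share in that line was 18.0%, with 8.69% higher and 9.34% lower.

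Of the 16 genes for the eIF2 kinases, eIF2, its exchange factor eIF2B and their controls, 2 rose and 1 fell after Dox in sgAAVS1 cells, 3 rose and 1 fell in sgIGF2BP2 cells, and 0 were called in sgIGF2BP3 cells by edgeR or DESeq2 (1 at an unadjusted p under 0.05). In sgAAVS1 and sgIGF2BP2 cells these 3 and 4 genes are near the share of all genes, and the sgIGF2BP2 counts were 3 and 1 without Dox replicate 2 as well. PPP1R15A, the GADD34 subunit that reverses eIF2 phosphorylation, rose in sgAAVS1 cells (254 ± 3.35 to 278 ± 9.66 CPM, log2 fold change 0.13, edgeR adjusted p = 0.00484). It also rose in sgIGF2BP2 cells (262 ± 8.42 to 310 ± 18.7 CPM, 0.25, edgeR adjusted p = 5.02e-08) and after siIGF2BP2 (274 ± 7.97 to 322 ± 9.77 CPM, 0.23, edgeR adjusted p = 4.81e-08). EIF2AK3, which encodes PERK, rose in sgAAVS1 cells by 0.31 (edgeR adjusted p = 0.0437). After siIGF2BP2, 2 of the 16 rose and 4 fell, with DELE1, a relay of mitochondrial stress to this pathway, at 0.22 and the exchange factor genes EIF2B3 and EIF2B2 at -0.26 and -0.23. Those 6 of 16 are also near the 36.8% of all genes. After siIGF2BP3, EIF2AK4, the amino acid sensor GCN2, fell from 104 ± 5.23 to 84.9 ± 1.63 CPM (-0.29, edgeR adjusted p = 1.21e-06) and PPP1R15B, the constitutive eIF2 phosphatase subunit, from 70.6 ± 4.598 to 57.6 ± 3.86 CPM (-0.29, edgeR adjusted p = 0.000246).

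For amino acid synthesis and transport, 15 of 19 listed genes were tested. After Dox, 4 fell and 0 rose in sgAAVS1 cells, 2 rose and 3 fell in sgIGF2BP2 cells, and 1 rose and 0 fell in sgIGF2BP3 cells by edgeR. The first 0 was 1 at an unadjusted p under 0.05 and 0 by DESeq2, and the last was 0 by each. Without sgIGF2BP2 Dox replicate 2, 1 rose and 2 fell in that line, against 18.0% of all genes, with SLC38A2 at 0.59 and SHMT2 at -0.26. SLC38A2, a neutral amino acid transporter, rose from 64.5 ± 7.17 to 95.3 ± 7.53 CPM in sgIGF2BP2 cells (0.56, edgeR adjusted p = 1.28e-11) and from 69.9 ± 3.23 to 87.6 ± 4.88 CPM in sgIGF2BP3 cells (0.33, edgeR adjusted p = 0.000233). PYCR1, which makes proline, fell in sgAAVS1 cells by 0.33 on the log2 scale (edgeR adjusted p = 2.42e-10), and SHMT2, the mitochondrial serine hydroxymethyltransferase, had changes of -0.16 in sgAAVS1 and -0.25 in sgIGF2BP2 cells, both called. After siIGF2BP2, 3 of the 15 rose and 6 fell, against 36.8% of all genes, with SLC7A5, a leucine transporter, at -0.41 (274 ± 2.47 to 207 ± 10.3 CPM, edgeR adjusted p = 2.51e-15) and MTHFD2, of mitochondrial folate metabolism, at -0.28. The median over the list was -0.10 there, against 0.011 for all genes tested. After siIGF2BP3, 1 fell, ALDH18A1 (-0.12, edgeR adjusted p = 0.0203), and 0 rose (1 at an unadjusted p under 0.05, 0 by DESeq2).

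The 13 tRNA charging genes had no rise by edgeR or DESeq2 in the 5 treatment comparisons, with 1 higher at an unadjusted p under 0.05, after siIGF2BP2. By edgeR, Dox lowered 1 in the sgAAVS1 line, 4 in the sgIGF2BP2 line (3 without Dox replicate 2) and 0 in the sgIGF2BP3 line (1 lower at an unadjusted p under 0.05, 0 by DESeq2), against 8.68%, 10.4% and 1.01% of all genes. After siIGF2BP2 6 fell, against 18.4% of all, and after siIGF2BP3 1 fell (3 by DESeq2), against 1.4%. With siControl against DMSO, 2 were higher and 6 lower in sgIGF2BP2 cells, against 18.4% of all genes in either direction, and 1 higher and 2 lower in sgIGF2BP3 cells, against 19.4%. The tRNA exporter gene XPOT fell from 112 ± 4.396 to 86.8 ± 1.70 CPM after siIGF2BP2 (-0.38, edgeR adjusted p = 1.95e-10) and changed by -0.24 with Dox in sgIGF2BP2 cells (edgeR adjusted p = 3.26e-05). NARS1 changed by -0.31 after siIGF2BP2 (edgeR adjusted p = 2.01e-10).

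Of 15 other ATF4 or CHOP targets, 10 were tested. With Dox, 3 rose and 1 fell in sgAAVS1 cells, 5 rose and 2 fell in sgIGF2BP2 cells, and 2 rose and 1 fell in sgIGF2BP3 cells, against 15.9%, 20.4% and 2.64% of all genes. The counts in sgIGF2BP2 cells were 5 and 2 without Dox replicate 2 as well, with BBC3 at 1.17 and DDIT4 at 0.82. BBC3, the apoptosis inducer PUMA and also a p53 target, rose in all 3 lines, from 11.65 ± 1.31 to 16.7 ± 1.963 CPM (0.51), from 10.4 ± 2.28 to 24.9 ± 1.82 CPM (1.22) and from 11.25 ± 1.25 to 17.25 ± 2.31 CPM (0.61), in the order given. DDIT4, an mTORC1 inhibitor, rose by 0.60 and 0.93 in the first 2 of them. EIF4EBP1, a translation repressor under ATF4, changed by -0.20 and -0.23 there, both called. The other rise in sgIGF2BP3 cells was TNFRSF10B, from 180.2 ± 1.565 to 205.2 ± 2.755 CPM (0.19, edgeR adjusted p = 7.48e-05). The part of p53 in the rises on this list was not tested. After siIGF2BP2, edgeR called 0 of the 10 higher and 1 lower, against 36.8% of all genes in either direction. DESeq2 called 0 higher, and 1 was higher at an unadjusted p under 0.05. The median over the list was -0.04. The called gene was ERO1A, an oxidase of the endoplasmic reticulum and a CHOP target. It fell from 165.5 ± 3.245 to 100.2 ± 4.30 CPM (-0.73, edgeR adjusted p = 5.50e-25). ERO1A had smaller called changes of -0.14 with siIGF2BP3, -0.14 with Dox in sgIGF2BP2 and -0.14 with Dox in sgIGF2BP3 cells.

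The chaperone and sensor genes of the unfolded protein response, 16 in all, had medians from -0.05 to 0.03 in the 5 treatment comparisons. In sgIGF2BP2 cells Dox raised 4 and lowered 2, with the sensor gene ERN1 at 0.33 and the cochaperone DNAJB9 at 0.31, against 20.4% of all genes called, and without Dox replicate 2 it raised 3 and lowered 1. In sgAAVS1 cells 2 rose and 3 fell, against 15.9% of all, among them SEL1L (0.21) and SDF2L1 (-0.18). In sgIGF2BP3 cells 0 were called by edgeR, at an unadjusted p under 0.05 and by DESeq2. After siIGF2BP2, 1 rose, PDIA4 (0.15), and 5 fell, among them SEC61B (-0.23), which as 6 of 16 is near the 36.8% of all genes. After siIGF2BP3, EDEM1 fell (-0.24, edgeR adjusted p = 0.000325).

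Targets of p53, which GDF15 also is, were read as a further list. Of its 14 genes, Dox raised 8 in the sgAAVS1 line (median 0.21), 14 in the sgIGF2BP2 line (median 0.60) and 7 in the sgIGF2BP3 line (median 0.22), against 7.25%, 10.0% and 1.64% of all genes called higher. Without sgIGF2BP2 Dox replicate 2, 14 rose in that line as well (median 0.58), with BTG2 at 1.39. By edgeR 0 fell in any of the 3 lines, with 0 lower at an unadjusted p under 0.05 and 0 by DESeq2. TP53INP1, a p53 cofactor, rose in all 3, from 5.00 ± 0.617 to 9.64 ± 1.32 CPM (0.95), 5.64 ± 0.739 to 10.96 ± 0.738 CPM (1.00) and 5.02 ± 0.449 to 9.11 ± 0.626 CPM (0.85). BTG2, an antiproliferative gene, rose by 1.37 in sgIGF2BP2 and 0.77 in sgIGF2BP3 cells, and the death receptor gene FAS rose by 0.61 in sgAAVS1 cells. After siIGF2BP2, where GDF15 fell, 4 of the 14 rose and 4 fell (2 and 3 by DESeq2), against 18.4% of all genes in each direction, with FDXR at 0.30, FAS at -0.45 and ZMAT3 at -0.40. After siIGF2BP3, 1 of the 14 rose, MDM2 (0.16, edgeR adjusted p = 0.0483), against 0.936% of all genes called higher. At an unadjusted p under 0.05, 6 of the 14 were higher. By edgeR 0 fell, with 0 lower at an unadjusted p under 0.05 and 0 by DESeq2. With siControl against DMSO, 5 of the 14 were higher and 1 lower in sgIGF2BP2 cells, and the same counts held in sgIGF2BP3 cells. Of all genes, 10.2% were higher and 8.16% lower in the first line, and 10.9% and 8.54% in the second. The Dox effect was higher in sgIGF2BP2 than in sgAAVS1 cells for 9 of the 14 (9 without sgIGF2BP2 Dox replicate 2), against 4.01% of all genes, and lower for 0 (0 at an unadjusted p under 0.05, 0 by DESeq2). The part of p53 in the GDF15 values was not tested.

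ATF4 binds composite C/EBP-ATF elements, so the letters TGATGNAA were searched on both strands of the RefSeq window from 250 bases before to 50 after each gene's start (GRCh38.p14) together with the cAMP response element TGACGTCA. The patterns cannot match the same bases. All 10 genes had a window, at a single RefSeq start each. Other annotated starts were not searched, so a window without a match does not show that a gene lacks the letters elsewhere. The ATF3 window, for example, lies at 212614768 to 212615067 of chromosome 1, inside a gene annotated from 212565334 to 212620777. TGATGNAA was found in 3.62% of 35116 windows and TGACGTCA in 1.85%. Among the 10 genes TGATGNAA was found once, on the reverse strand in the window of CHAC1, and TGACGTCA in none. The match is shown because CHAC1 is the gene of the 10 whose window holds these letters. It starts 209 bases before the start site, and the stretch lies at chr15:40953251-40953280, forward strand, with the matching bases in capitals.
CHAC1: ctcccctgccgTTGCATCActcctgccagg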

How the data were processed

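The authors deposited 1 table of counts of reads per gene for 40 libraries. The counts are whole numbers without normalization. The submitters' processing notes name bcl2fastq 2.20.0.422, STAR 2.7.5c and build hg38. The counting tool, annotation and strand setting are not given in the sources used here. Names, positions and lengths came from GENCODE 29 (GRCh38), which named 19847 of the 19962 genes. The counts pool new and old RNA.

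Genes were kept with filterByExpr by group. The main test was edgeR 4.0.16's quasi-likelihood test on all 40 libraries with 1 coefficient per group, TMM scaling (factors 0.978 to 1.03) and Benjamini-Hochberg adjustment over 11428 genes, called at an adjusted p under 0.05. It was run for 11 comparisons of groups and 4 differences between effects. The SE is the change divided by the square root of F. The 95% intervals are normal ones from the SE, each for a single comparison. Alternatives were DESeq2 1.42.0, RLE scaling, 2 other filters, a replicate block, fewer groups, a test against 1.2-fold and each library left out. The list counts without sgIGF2BP2 Dox replicate 2 were added after the data were seen. Same-numbered libraries had correlations of at most 0.0966 in their deviations, so the numbers were not taken as pairs. The same-numbered library was still the best match for all 4 libraries of sgIGF2BP2 siControl against DMSO. That also held for sgIGF2BP3 against sgAAVS1 with DMSO, while in the other comparisons of groups it held for 0 to 2 of 4. The genes and lists were chosen with earlier results of these data known. Named list genes are, per list and treatment comparison, up to 2 called rises and 2 called falls with the greatest change. Genes most like a member are the 3 with the highest Pearson's r over 10 group means of log2 CPM (prior count 2), given for 5 of the genes.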

Additional observations from a re-analysis of the deposited data

Results flagged for a closer look

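Among 100 sets of 4 libraries (10 genes in 10 groups), 2 held a library far from the other 3 by Dixon's criterion, where chance gives about 5%. SESN2 in sgIGF2BP2 DMSO replicate 2 was at 10.8 CPM, against 6.21 to 6.68 CPM in the other 3. TRIB3 in sgIGF2BP2 DMSO replicate 1 was at 60.98 CPM, against 62.8 to 63.0 CPM.

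Of 40 tests of a difference between effects (10 genes in 4 comparisons), 5 passed by edgeR's quasi-likelihood test. Of all genes tested, 6.97% passed in sgIGF2BP2 to sgAAVS1 and 7.78% in sgIGF2BP3 to sgAAVS1. The shares were 2.91% in sgIGF2BP3 to sgIGF2BP2 and 18.7% between the siRNA pools. The Dox effect on SESN2 was 0.74 higher (log2) in sgIGF2BP2 than in sgAAVS1 cells, and that on PHGDH 0.28 higher in sgIGF2BP3 than in sgIGF2BP2 cells. The effect of siIGF2BP3 exceeded that of siIGF2BP2 by 0.47 for TRIB3 and 0.55 for GDF15, and for PHGDH the difference was -0.24.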

How the results depend on the processing

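Of 257 counts recomputed under alternatives, 231 stayed within 1.5 times the reported one, 11 were lower and 15 higher. Of 607 changes of single genes, 541 kept their direction and call, 40 lost and 26 gained a call, and 0 called changes reversed. These cover only genes and comparisons called in the main fit or in an alternative. The 115 pairs of gene and comparison never called are left out, and some of them changed sign. TRIB3 in the sgIGF2BP3 to sgAAVS1 difference did so in 12 of 23 alternatives. A test against a 1.2-fold change left 1 gene called with Dox in sgAAVS1 and sgIGF2BP2 cells, 0 in sgIGF2BP3 cells, 1 after siIGF2BP2, 1 in each siControl against DMSO comparison, 0 in the sgIGF2BP2 to sgAAVS1 and sgIGF2BP3 to sgIGF2BP2 differences and 1 in that of the siRNA pools. Without a filter 2 genes were called with Dox in sgIGF2BP3 cells, ASNS being added. Libraries of the same number were not taken as pairs in the main fit. With the replicate block 2 were called there (ASNS at an edgeR adjusted p of 0.0497) and 1 in the sgIGF2BP3 to sgAAVS1 difference, GDF15, and no other count left the 1.5-fold range. The shares of all genes called were not recorded for the 1.2-fold test, the fit without a filter or the replicate block. Whether calls among the genes described changed more or less than calls among all genes was therefore not tested for these settings.

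Leaving out 1 library at a time gave 1 to 3 called genes with Dox in sgAAVS1, 3 to 5 in sgIGF2BP2 and 0 to 2 in sgIGF2BP3 cells, against 11.3% to 17.5%, 16.2% to 19.0% and 0.942% to 2.49% of all genes in the same fits. It gave 3 to 4 after siIGF2BP2 (31.9% to 34.4% of all), 0 after siIGF2BP3 (1.56% to 1.94%), 3 to 4 (14.6% to 16.4%) and 2 to 4 (14.8% to 17.6%) for siControl against DMSO. For the differences it gave 1 to 2 for sgIGF2BP2 to sgAAVS1 (4.66% to 10.1%), 0 to 1 for sgIGF2BP3 to sgAAVS1 (3.73% to 12.3%), 1 to 3 for sgIGF2BP3 to sgIGF2BP2 (2.28% to 3.24%) and 2 to 3 for the siRNA pools (16.1% to 18.3%). ASNS, ATF3 and CHAC1 had at most 23, 48 and 40 counts per library and the widest intervals.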
